A study of Mus musculus with 4 samples.

Results

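Genes of the interleukin-1 (IL-1) family and its inflammasome were followed through 4 single-cell libraries of mouse brain. The 10 genes were taken by symbol from the 32285 genes of the count matrices, and all 10 were found. They comprise the cytokines Il1a, Il1b, Il18 and Il33, the receptor antagonist Il1rn, the receptor chains Il1r1 and Il1rap, and the inflammasome genes Nlrp3, Pycard and Casp1. The study engrafted C57BL/6 mice intracranially with 1000 CT2A-GFP-luc cells, a murine glioblastoma line carrying a fluorescent protein and luciferase, or gave phosphate-buffered saline as sham. Mice were 8 weeks (young) or 93 weeks (old) of age, and tissue was taken 2 weeks later from the hemisphere opposite the injection. Every combination of age and injection is represented by 1 library, 4 in all, and the number of mice behind a library is not given in the sources used here. The sham mice had an injection too. With 1 library per group no difference has a replicate check, no test was made, and age or tumour and library cannot be told apart.

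IL-1 alpha and IL-1 beta are inflammatory cytokines that signal through the receptor chain Il1r1 together with the accessory chain Il1rap, and the antagonist encoded by Il1rn occupies the receptor without signalling. IL-1 beta and IL-18 are made as precursors that caspase-1 cleaves after an inflammasome forms from the sensor NLRP3 and the adaptor ASC, the product of Pycard, whereas IL-33 is a nuclear protein released from damaged cells that signals through Il1rl1 with Il1rap. In the brain, microglia are a known source of IL-1, oligodendrocytes and astrocytes of IL-33, and endothelial cells a known IL-1 target. RNA levels do not show cleavage or release, and counts at the 3′ end cannot separate the membrane and soluble forms of Il1rap or the forms of Il1rn.

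Il1a (chromosome 2, 129299610 to 129309972, minus strand, GRCm38) and Il1b (chromosome 2, 129364570 to 129371139, minus strand) are neighbours 54.6 kb apart, and Nlrp3 lies on chromosome 11 (59541568 to 59566956, plus strand). The 250 bases before each of these 3 starts are shown because these 3 genes, of the 6 members with at least 10 CPM in microglia, passed 1.5-fold there in a comparison by age or by tumour (levels follow). Sequences and starts are those of RefSeq on GRCm38.p6, where all 10 genes were matched. Capitals mark matches, on either strand, to 4 motifs. They are TGANTCA (AP-1), the kB pattern (GGG and CC with any 5 bases between them), GAGGAA (the core bound by PU.1, a factor of myeloid cells) and TATAAA (known as the TATA element).
Il1a, chr2:129309973-129310222, minus strand: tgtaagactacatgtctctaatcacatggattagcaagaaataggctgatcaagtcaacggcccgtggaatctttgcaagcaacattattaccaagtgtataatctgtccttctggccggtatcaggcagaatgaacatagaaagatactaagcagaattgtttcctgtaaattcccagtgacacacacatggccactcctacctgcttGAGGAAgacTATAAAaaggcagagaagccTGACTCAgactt
Il1b, chr2:129371140-129371389, minus strand: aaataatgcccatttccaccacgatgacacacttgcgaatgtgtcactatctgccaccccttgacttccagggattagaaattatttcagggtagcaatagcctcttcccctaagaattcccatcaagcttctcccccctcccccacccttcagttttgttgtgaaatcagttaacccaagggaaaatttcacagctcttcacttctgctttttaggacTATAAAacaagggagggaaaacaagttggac
Nlrp3, chr11:59541319-59541568, plus strand: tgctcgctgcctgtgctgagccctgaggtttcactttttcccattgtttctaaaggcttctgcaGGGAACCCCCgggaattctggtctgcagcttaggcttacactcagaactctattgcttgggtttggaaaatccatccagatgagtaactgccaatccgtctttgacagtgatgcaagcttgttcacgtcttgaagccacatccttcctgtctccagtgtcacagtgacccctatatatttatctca
The Il1a window holds GAGGAA at bases -41 to -36, TATAAA at -32 to -27 and TGACTCA at -12 to -6 before the start. The Il1b window holds TATAAA at -31 to -26 and no match to the other motifs. The Nlrp3 window holds GGGAACCCCC at -186 to -177, which matches the kB pattern on both strands over the same bases. Of 32851 promoters in the table, 6.75% had TGANTCA, 45.8% the kB pattern, 23.3% GAGGAA and 12.4% TATAAA in the same window, so the kB and PU.1 patterns are common by letters alone. A match is a description of letters and no measure of binding.

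The other 7 genes lie apart from these on the same build. Il1rn is on chromosome 2 (24336853 to 24351494, plus strand), Il1r1 on chromosome 1 (40225080 to 40317257, plus), Il1rap on chromosome 16 (26581704 to 26730117, plus) and Il33 on chromosome 19 (29925114 to 29960718, plus). Il18 (50554827 to 50581840, plus) and Casp1 (5298517 to 5307265, plus) are both on chromosome 9, and Pycard is on chromosome 7 (127989708 to 127993867, minus).

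The 4 libraries held 10665 to 12070 barcodes and 62726818 to 76652484 unique molecular identifiers (UMIs, each a count of 1 captured RNA molecule). After filters and doublet removal 40390 cells remained, with medians of 3773 to 4858 UMIs per cell, and pairs of libraries shared 27 to 53 barcodes. A cell was gated to 1 of 19 types when at least 3 of that type's 8 markers carried a UMI and at least 2 more than of any other type. Cells with at least 2 UMIs of Hmga2 were set apart as Hmga2-positive, which is a gate and not a cell type. Levels are UMIs of a gene per 1000000 UMIs (counts scaled to depth, CPM), summed over the gated cells of a library. Where 4 values follow each other they are for the young mice first (sham, then tumour) and for the old mice after (sham, then tumour). Ratios carry 95% intervals that cover counting error only. Microglia-gated cells numbered 3717, 3045, 2512 and 2440, and all 8 microglia markers were present in each library. The gate selects on these markers, so their presence is no check of it. Fewer kept cells stayed ungated in old sham (5.97%) than in young tumour (11.33%).

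The 10 genes divided by source. Il1a had 96.0 to 97.9% of its UMIs in microglia-gated cells in each library, and Nlrp3 had 68.2 to 90.4% there. Pycard, the adaptor, lay in microglia-gated cells to 63.7 to 84.9% and was also present in monocyte-, T cell-, B cell- and NK cell-gated cells. Il1b had a broader myeloid source, with 16.2 to 72.1% of its UMIs in microglia-gated cells and its highest levels in neutrophil-gated cells. Il33 was a gene of macroglia, with 79.6 to 91.9% of its UMIs in oligodendrocyte-gated cells and 5.88 to 17.0% in astrocyte-gated cells. In young tumour, Hmga2-positive cells held a further 9.33% of its UMIs. Il18 was highest in astrocyte-gated cells, Il1rap in oligodendrocyte-gated cells, and Il1r1 in cells of vessels. Most Casp1 UMIs (72.9 to 82.2%) lay in microglia-gated cells in 3 libraries, and in young tumour 27.2% did, against 44.2% in Hmga2-positive cells. Il1rn was scarce, with 580 UMIs in all kept cells.

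**Figure D1:**
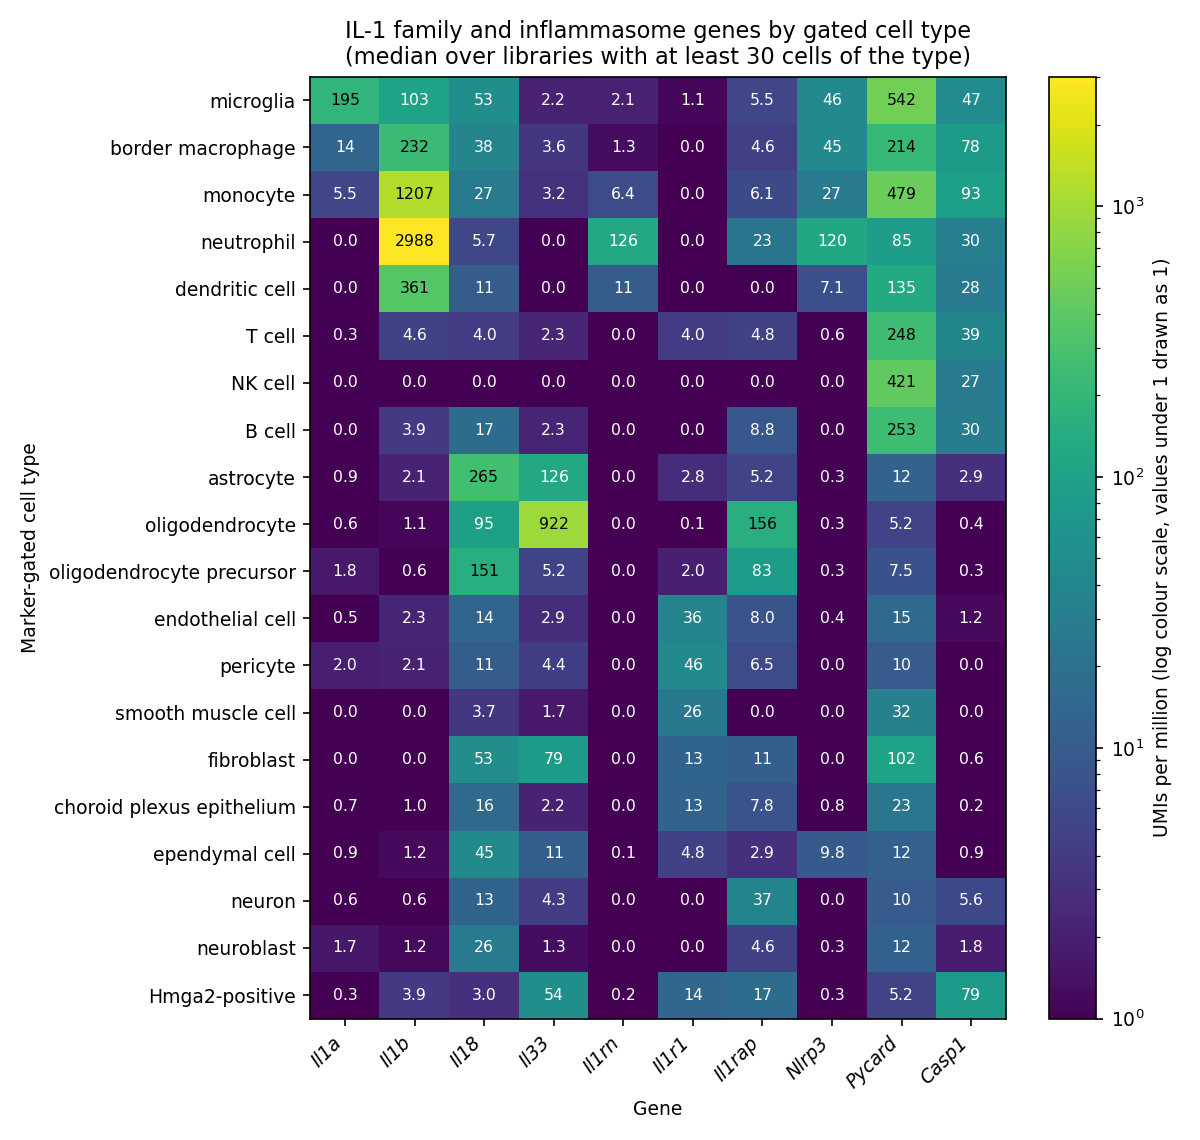
Median CPM of each gene (columns) in each gated type (rows) over the libraries with at least 30 cells of the type, on a log colour scale with the value printed in each cell. Il1a is bright in microglia, Il1b in neutrophils and monocytes, Il33 in oligodendrocytes, and Il1r1 in pericytes and endothelial cells.

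Il1a, the IL-1 released mainly from dying or damaged cells, was highest in the old sham library. In microglia-gated cells its 4 levels were 168, 75.6, 806 and 222 CPM. Il1b, the secreted IL-1 that caspase-1 cleaves, stood at 77.2, 69.7, 430 and 129 CPM in the same order. Both cytokines therefore had 1 library, old sham, far above the other 3. The sensor Nlrp3 followed the same order of libraries at its top, with 49.4, 36.7, 113 and 42.7 CPM.

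Without a tumour, old over young ratios in microglia-gated cells were 4.81 for Il1a (95% interval 4.60 to 5.03), 5.56 for Il1b (5.21 to 5.94) and 2.29 for Nlrp3 (2.09 to 2.51). Of the 6 members with at least 10 CPM in 1 or both libraries, 3 were at least 1.5-fold higher and 0 lower, against 4.42% higher and 4.80% lower of the 8164 genes measured. The members' median log2 ratio was 0.55 and that of all genes -0.06. With a tumour, the age ratios were 2.93 for Il1a (2.71 to 3.17), 1.85 for Il1b (1.70 to 2.02) and 1.16 for Nlrp3, so that 2 of 6 were higher and 0 lower (2.0% and 2.33% of all genes). Medians were then 0.07 for the members and -0.01 for all genes. The age difference had the same direction with and without a tumour for both cytokines and was smaller with it.

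Tumour over sham ratios lay below 1 for the 3 genes at both ages. In young mice the ratio was 0.451 for Il1a, 0.902 for Il1b and 0.743 for Nlrp3, and 1 of 6 members was lower and 0 higher (1.51% and 2.68% of all genes). In old mice the ratio was 0.275 for Il1a, 0.301 for Il1b and 0.377 for Nlrp3, and 3 of 6 were lower and 0 higher (3.04% and 2.61% of all genes). The members' median log2 ratio was -0.09 in young and -0.70 in old mice, beside -0.04 and 0.04 for all genes. Dividing the ratio in old mice by that in young mice gave 0.610 for Il1a (0.558 to 0.666), 0.333 for Il1b (0.299 to 0.371) and 0.508 for Nlrp3 (0.434 to 0.594). These 4 comparisons share libraries in pairs, and old sham enters both comparisons with the largest ratios.

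**Figure D2:**
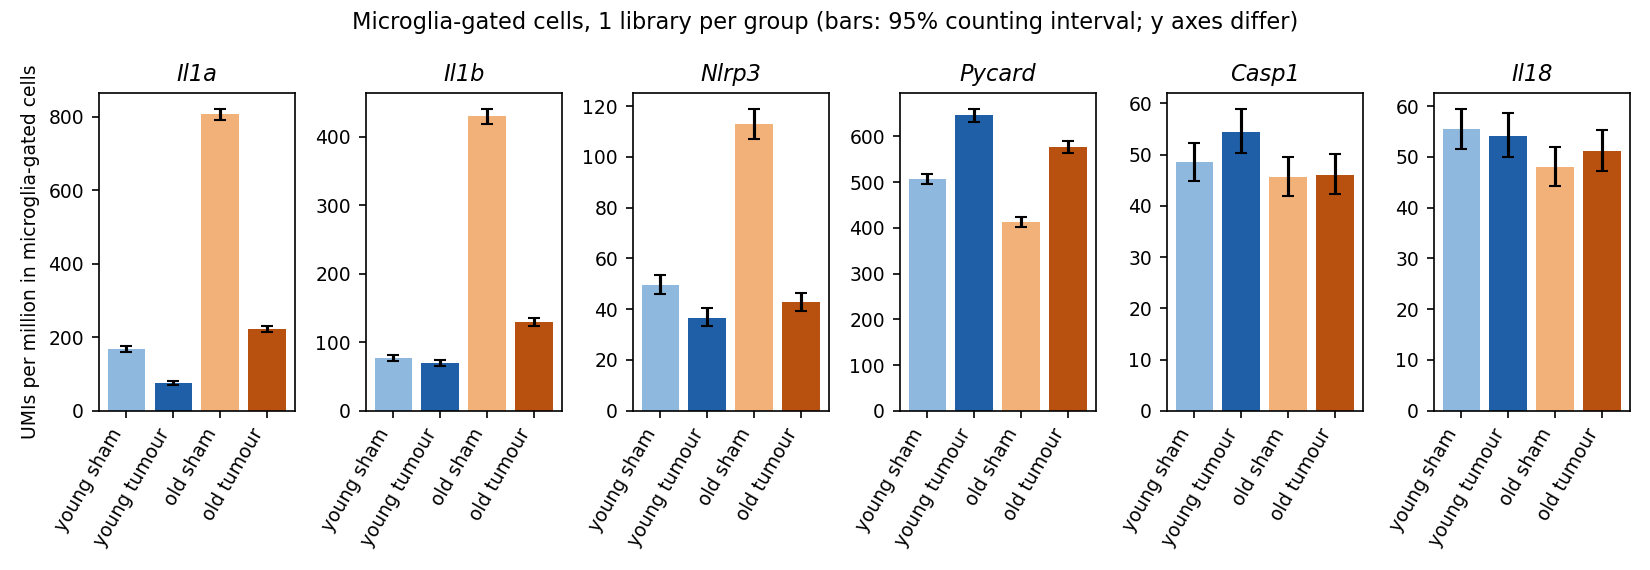
CPM (y axis, scales differ) of the 6 measured members in microglia-gated cells of the 4 libraries (x axis), 1 library per bar, with 95% counting intervals. Il1a, Il1b and Nlrp3 peak in old sham at 806, 430 and 113 CPM, while Casp1 and Il18 lie between 45.6 and 55.4 CPM in all 4.

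The other inflammasome components did not share the old sham peak. Casp1, the protease, had 48.5, 54.5, 45.6 and 46.1 CPM, and its 4 ratios were all within 1.5-fold. Pycard, the adaptor, had 507, 646, 412 and 577 CPM, lowest in old sham and higher in both tumour libraries than in the sham library of the same age. Il18, the other cytokine processed by caspase-1, had 55.4, 54.2, 48.0 and 51.1 CPM. Of the inflammasome genes in microglia-gated cells, then, the sensor passed 1.5-fold together with Il1a and Il1b, and the adaptor and protease stayed within it.

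Il1b came from fewer microglia-gated cells than Il1a. Il1b UMIs were found in 162, 143, 618 and 226 cells, of which 22, 22, 93 and 31 cells held 50% of them. The top 1% of cells held 66.2% of the Il1b UMIs in young sham and 22.3% in old sham, so Il1b was less concentrated where it was highest. Il1a UMIs were found in 1071, 562, 1676 and 943 cells, of which 208, 133, 304 and 142 cells held 50% of them. The cells with an Il1a UMI were 28.8, 18.5, 66.7 and 38.6% of the gate. After thinning each cell to 1000 UMIs, which left out 59 to 188 shallower cells per library, these shares were 12.4, 6.96, 38.4 and 15.5%. For comparison, 0.112 to 1.67% of astrocyte-gated cells, which are not known as an Il1a source, had an Il1a UMI (medians of 3094 to 3770 UMIs per cell, and 3204 to 4949 in microglia-gated cells). Pycard was spread over the gate, with a UMI in 77.2 to 87.7% of cells.

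**Figure D3:**
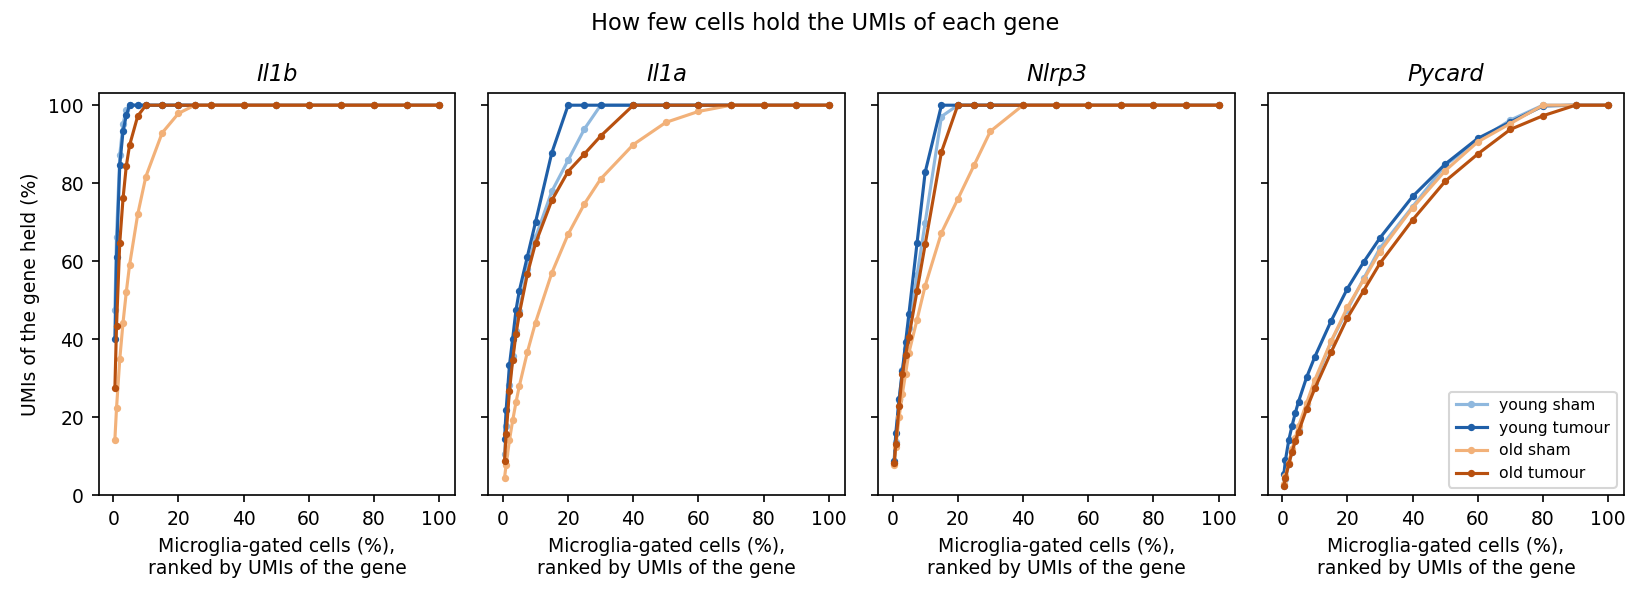
Share of a gene's UMIs (y axis, %) held by the microglia-gated cells with most of them (x axis, % of cells ranked by UMIs of the gene), 1 line per library. The Il1b lines rise within a few percent of cells, less steeply in old sham, and the Pycard lines are close together and shallow.

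Il1a and Il1b met in the same cells in 3 of the 4 libraries. After thinning, Il1a was detected in 63.2% of Il1b-positive and 33.9% of Il1b-negative microglia-gated cells of old sham. The shares were 36.0 and 14.4% in old tumour and 28.2 and 12% in young sham. In young tumour they were 6.90% (4 of 58 cells, 95% interval 1.91 to 16.7) and 6.96%, so no co-occurrence was detectable there. Nlrp3 was detected in 17.7% of Il1b-positive and 9% of Il1b-negative cells of old sham. In old tumour the shares were 7.21% (95% interval 3.16 to 13.7) and 4.41%. In young sham they were 3.53% (3 of 85 cells) and 5.08%, and in young tumour 1.72% (1 of 58 cells) and 3.87%. Outside old sham the intervals of the 2 shares overlapped. Casp1 and Pycard showed no such enrichment in old sham: Il1b was detected in 16.1% of Casp1-positive and 15.1% of Casp1-negative cells, and in 14.6 and 15.5% for Pycard.

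Cells with a UMI of Tnf, another inflammatory cytokine of activated microglia, were compared with the rest, a split chosen after the data were seen. They made up 307, 166, 1274 and 395 cells. Il1a was 397, 190, 1065 and 479 CPM with a Tnf UMI and 140, 64.4, 427 and 152 CPM without. Il1b was likewise higher in Tnf-positive cells in all 4 libraries, at 567 and 228 CPM in old sham and 327 and 75.3 CPM in old tumour. The old sham peak was present on both sides of the split. Nlrp3 was 48.6 and 49.5 CPM in young sham and 134 and 82.3 in old sham.

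Genes known to respond to tissue dissociation also differed between the libraries, in part with these members. The summed level of 20 such genes in microglia-gated cells (among them Fos, Jun, Atf3 and Hspa1a) was 27903, 14083, 36393 and 18525 CPM, with old sham highest and young tumour lowest, as for Il1a. Old tumour lay below young sham on this list and above it for Il1a and Il1b. Of the 20, 5 were higher and 2 lower in old sham than in young sham, beside 4.42 and 4.80% of all genes. In young tumour 19 were lower than in young sham (1.51% of all genes), and in old tumour 15 were lower than in old sham (3.04%). In cells under the median share of this list (1.68% of UMIs), which kept 47.2, 67.3, 22.9 and 60.7% of the gate, Il1a was 51.1, 47.9, 110 and 73.5 CPM. Its age ratio there was 2.15 (1.82 to 2.53) in sham and 1.53 in tumour. Its tumour ratio there was 0.937 in young and 0.670 in old mice, both within 1.5-fold. Nlrp3 was 43.2, 34.4, 34.1 and 34.8 CPM in those cells, so that its old sham peak was absent. Il1b was 7.74, 74.0, 65.3 and 32.7 CPM there, with an age ratio of 8.44 in sham and 0.442 in tumour; young tumour was 9.56-fold young sham there, and old tumour 0.5-fold old sham. The part of dissociation in the differences was not tested beyond these values.

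Markers of other myeloid types within the microglia gate were highest in young tumour, except those of neutrophils. The summed level of 8 border macrophage markers there was 39.3, 226, 18.1 and 34.8 CPM, and 8 monocyte markers summed to 25.4, 98.0, 14.9 and 20 CPM. Neutrophil markers summed to 38.0, 6.24, 7.87 and 19.6 CPM. In young tumour, the 695 microglia-gated cells with a UMI of a monocyte, border macrophage or dendritic cell marker (a split chosen after the data were seen) were 22.8% of the gate and held 73.8% of its Il1b UMIs, 91.5% of its Il1rn UMIs and 29.5% of its Il1a UMIs. In old sham such cells were 19.8% of the gate and held 26.5% of Il1b. They were 18.9% of the gate with 46.7% of Il1b in young sham, and 22.4% with 45.6% in old tumour. In cells without any such UMI, Il1b was 52.6, 27.2, 409 and 95.1 CPM and Il1a 167, 79.3, 791 and 216 CPM. The Il1b ratios became 7.76 (7.11 to 8.49) and 3.49 (3.00 to 4.08) for age in sham and tumour, and 0.518 (0.439 to 0.608) and 0.233 (0.216 to 0.251) for tumour in young and old mice. Il1a ratios were 4.75, 2.73, 0.476 and 0.273, close to those over the whole gate.

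**Figure D4:**
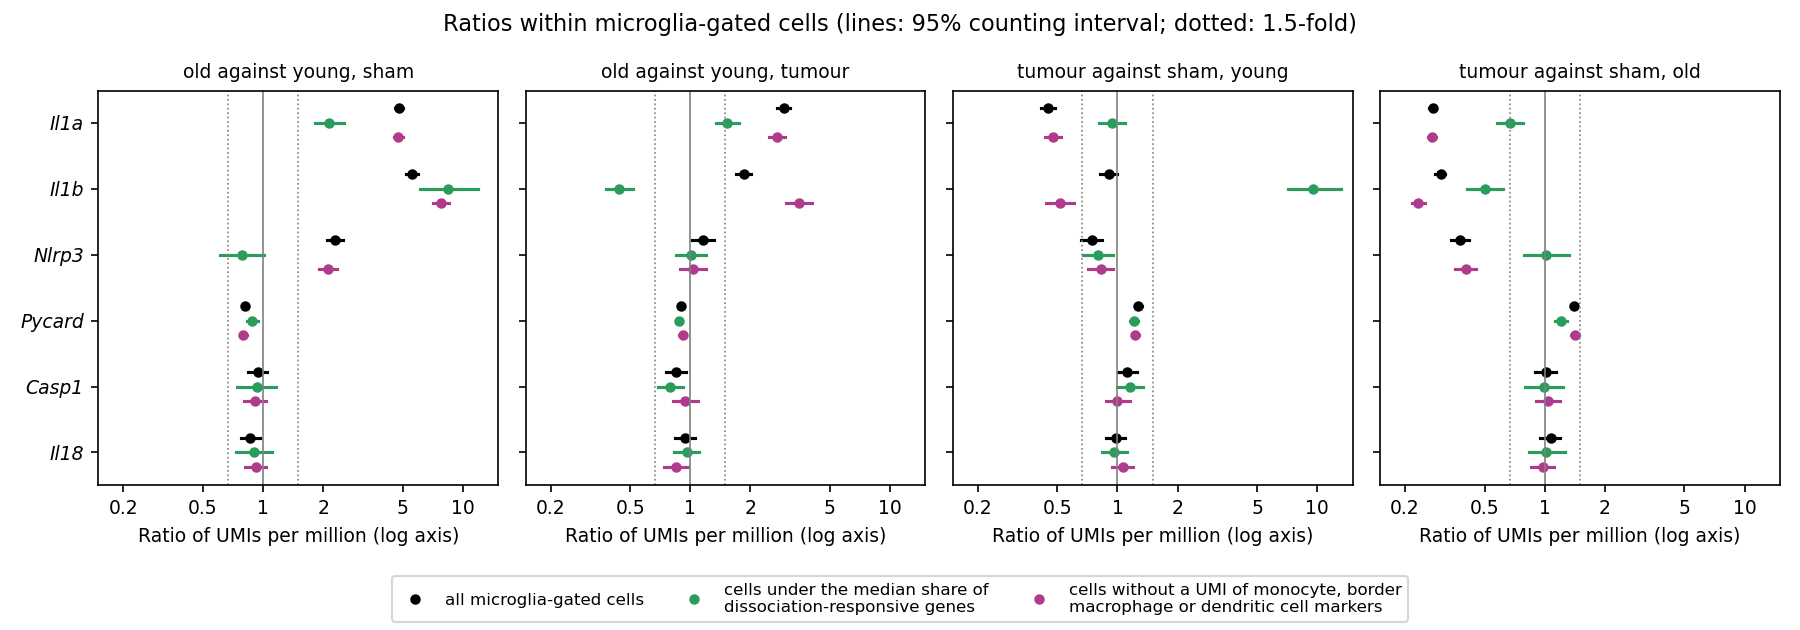
Ratios of CPM (x axis, log scale) for the 6 measured members (y axis) in the 4 comparisons, over all microglia-gated cells, cells under the median share of dissociation-responsive genes, and cells without a UMI of other myeloid markers; lines are 95% counting intervals and dotted lines 1.5-fold. Pycard, Casp1 and Il18 stay within 1.5-fold in every panel, and Il1b moves from 0.902 to 9.56 or 0.518 for the young tumour comparison. Il1a is past 1.5-fold except in cells under the median, where its tumour ratios are 0.937 in young and 0.670 in old mice.

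Outside microglia, Il1b was highest in neutrophil-gated cells, with 2085, 2988, 3272 and 4401 CPM from 111, 42, 21 and 59 cells. Monocyte-gated cells came next at 598, 1207, 2100 and 841 CPM (40, 142, 32 and 19 cells). Dendritic cell-gated cells had 361 CPM in young tumour, the only library with at least 30 of them (39 cells), and border macrophage-gated cells had 277, 101, 810 and 188 CPM. Border macrophages were thus highest in old sham too, but in those under the median of the dissociation list the age ratio of Il1b in sham was 0.834. Their Il1a was 11.4, 0, 100 and 15.8 CPM from 3, 0, 38 and 9 UMIs. In these small gates a large part of all genes passed 1.5-fold (25.3% higher in border macrophages and 26.1% in monocytes for old against young sham), so ratios there say little about Il1b in particular. In young tumour, monocyte-gated cells held 24.4% of the library's Il1b and ungated cells 46.8% (2295 of 4907 UMIs). Under a looser gate 599 of these 2295 UMIs fell to monocytes, 419 to microglia, 132 to dendritic cells and 66 to border macrophages, and 939 stayed ungated.

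Il1rn, the receptor antagonist, had its highest level in neutrophil-gated cells, while its UMIs came from several myeloid gates. Neutrophil-gated cells had 95.4, 139, 140 and 126 CPM from 47, 14, 10 and 22 UMIs. Library totals over kept cells were 64, 410, 45 and 61 UMIs, so young tumour had the most. There, ungated cells held 212 UMIs, monocyte-gated cells 112 and microglia-gated cells 47. In both old libraries microglia-gated cells held more Il1rn UMIs than neutrophil-gated cells, with 20 against 10 in old sham and 32 against 22 in old tumour. Of the 32, 23 lay in cells without a UMI of other myeloid markers. The microglial level was nonetheless low, at 0.0722 to 4.13 CPM. Monocyte-gated Il1rn was 6.43 CPM in young sham (2 UMIs) and 113 CPM in young tumour, a ratio of 17.6 (4.76 to 147), where 18.4% of all genes were at least 1.5-fold higher. The decoy receptor Il1r2, which binds IL-1 without signalling, reached 91.4 CPM in neutrophil-gated cells of young sham, 248 of young tumour and 126 of old tumour, from 22 to 45 UMIs. The IL-18 inhibitor Il18bp followed Il1rn: in microglia-gated cells it was 2.24, 36.8, 4.13 and 4.64 CPM, and 368 of its 419 UMIs in young tumour lay in cells with other myeloid markers.

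Il33, the alarmin, was higher in old than in young oligodendrocyte-gated cells, past 1.5-fold in sham and a little under it in tumour. Its level was 728, 752, 1171 and 1092 CPM. The age ratio was 1.61 (1.56 to 1.66) in sham and 1.45 (1.41 to 1.5), under the bound, in tumour, and the tumour ratio was 1.03 in young and 0.932 in old mice. Of the 3 members measured in these cells 1 was at least 1.5-fold higher in old than in young sham, Il33, against 5.59% of all genes. The age ratio of Il33 was also seen in cells under the median share of dissociation-responsive genes, at 1.70 in sham and 1.54 in tumour. Il33 was broad, with a UMI in 81.2, 82.2, 91.9 and 94.7% of oligodendrocyte-gated cells and 46.0, 51.3, 64.3 and 64.3% after thinning.

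Klk6, a protease of a subset of mature oligodendrocytes, marked cells with less Il33, in a split chosen after the data were seen. Cells with a Klk6 UMI had 186, 251, 663 and 633 CPM, and cells without one had 852, 837, 1343 and 1261 CPM. Within Klk6-positive cells the age ratio was 3.57 (3.13 to 4.09) in sham and 2.52 (2.22 to 2.86) in tumour, and within Klk6-negative cells 1.58 (1.53 to 1.63) and 1.51 (1.46 to 1.56). The age ratio of Il33 was thus past 1.5-fold on both sides and larger in the cells with Klk6, whose young levels were lower; the difference in CPM was not larger there. Il1rap and Il18 had age ratios of 0.961 and 0.946 in Klk6-positive sham cells.

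Astrocyte-gated cells ranked next for Il33, at 120, 107, 157 and 131 CPM, with age ratios of 1.30 and 1.22 and tumour ratios of 0.891 and 0.834, all within 1.5-fold. In each library astrocytes with a Gfap UMI had less Il33 than those without, for example 92.2 against 125 CPM in young sham and 127 against 162 in old sham, a small difference beside the Klk6 one. Fibroblast-gated cells had 71.8, 86.1, 31.6 and 111 CPM from 24 to 94 UMIs, below astrocytes in every library. Microglia-gated cells had 1.88 to 6.62 CPM, at most 0.493% of a library's Il33 UMIs.

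**Figure D5:**
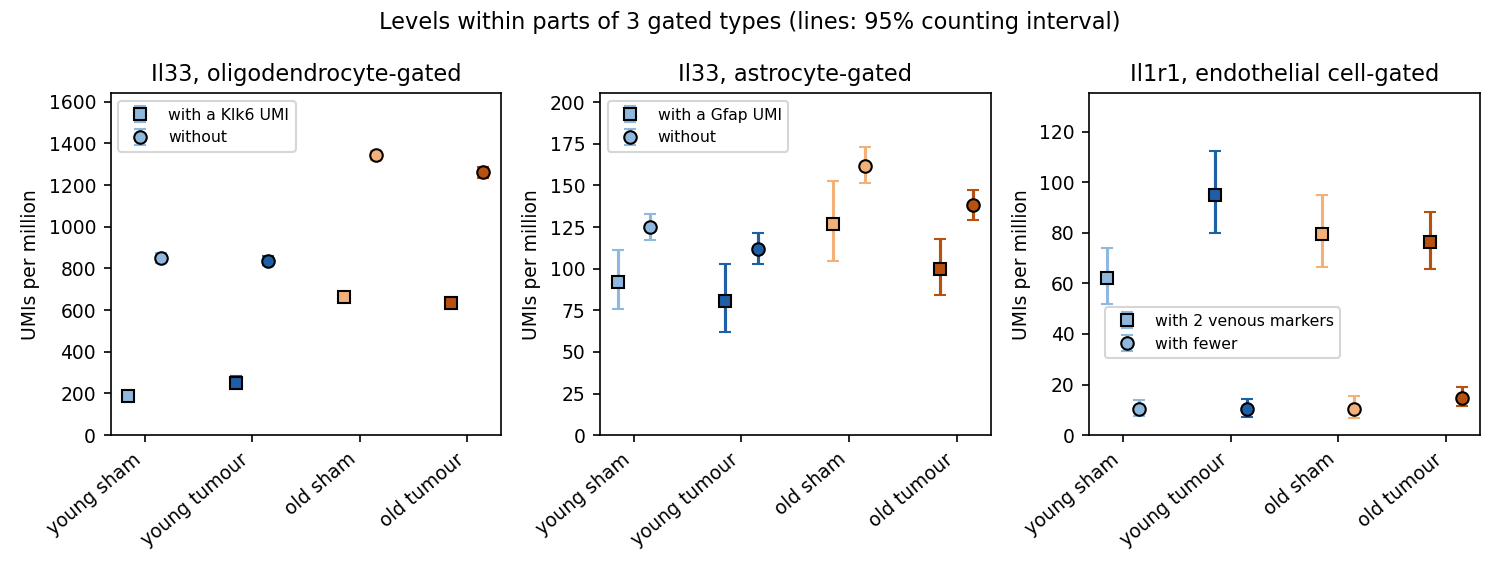
CPM (y axis) with 95% counting intervals in each library (x axis) for Il33 in oligodendrocyte-gated cells with or without a Klk6 UMI, Il33 in astrocyte-gated cells with or without a Gfap UMI, and Il1r1 in endothelial cell-gated cells with at least 2 or fewer venous markers. Il33 is higher without Klk6 in every library, and Il1r1 is higher in cells with venous markers.

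Il18 was led by astrocytes and differed little between the libraries. Astrocyte-gated cells had 281, 281, 237 and 249 CPM and held 36.4 to 55.5% of each library's Il18 UMIs. Oligodendrocyte precursor-gated cells had 150, 113, 152 and 86.4 CPM, where 21 to 316 cells were gated, and oligodendrocyte-gated cells 94.4, 88.6, 95.8 and 99.3 CPM. The 4 ratios in astrocytes ran from 0.842 to 1.05. Endothelial cell-gated cells had little Il18, 10.4, 10.8, 20.3 and 16.6 CPM, with an age ratio of 1.95 (1.39 to 2.73) in sham and 1.53 (1.09 to 2.17) in tumour, where 5.33 and 3.35% of all genes were higher. In endothelial cells under the median of the dissociation list the sham ratio was 1.24. For receiving cells, Il18r1 was 104, 77.3, 67.0 and 92.3 CPM in T cell-gated cells and at most 0.264 CPM in microglia-gated cells. NK cell-gated cells of young tumour (39 cells) had 188 CPM of Il18r1 from 21 UMIs and 134 CPM of the second chain Il18rap, which was 41.7 CPM in T cell-gated cells of that library. In neutrophil-gated cells Il18rap was 146 CPM in young sham, 109 in young tumour and 188 in old tumour.

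Il1r1, the signalling receptor for IL-1, had its highest levels in cells of vessels, while many of its UMIs lay elsewhere. Endothelial cell-gated cells held 30.5 to 42.6% of a library's Il1r1 UMIs. Choroid plexus epithelium-gated cells held 7.05 to 26.6% and ungated cells 15.8 to 32.0%. Endothelial cell-gated cells had 27.1, 36.1, 36.7 and 36.1 CPM, all 4 ratios being within 1.5-fold. Pericyte-gated cells had 51.1, 41.0, 33.5 and 59.4 CPM from 4 to 14 UMIs, which does not set them apart from endothelial cells. Within the endothelial gate Il1r1 lay in venous cells: with at least 2 of the venous markers Vwf, Slc38a5 and Ackr1 the level was 62.2, 95, 79.7 and 76.3 CPM, and with fewer it was 10.2, 10.2, 10.5 and 14.8 CPM. Cells with at least 2 of the arterial markers Bmx, Gkn3 and Sema3g had 11.9, 7.61, 11.3 and 11.5 CPM. Both splits were chosen after the data were seen. Choroid plexus epithelium-gated cells had 9.50, 13.6, 21.2 and 11.8 CPM, with an age ratio of 2.24 (1.58 to 3.21) in sham, where 12.5% of all genes were at least 1.5-fold higher, and a tumour ratio of 0.556 (0.437 to 0.709) in old mice, where 10.4% were lower. Microglia-gated cells, the main source of Il1a, had 0.794 to 1.57 CPM of the receptor from 11 to 19 UMIs per library.

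Il1rap, the accessory chain shared by the IL-1 and IL-33 receptors, was highest where Il1r1 was near 0. Oligodendrocyte-gated cells had 166, 152, 161 and 143 CPM and held 69.0 to 82.1% of its UMIs, while their Il1r1 was 0 to 4 UMIs in a library. Precursor-gated cells followed at 76.0 to 115 CPM and neuron-gated cells at 27.6 to 53.6 CPM. Neutrophil-gated cells had 14.2 to 89.4 CPM in the 3 libraries with at least 30 of them, on 22 UMIs over all libraries. Endothelial cells, with Il1r1, had 6.97 to 9.80 CPM of Il1rap, without a venous difference (8.88 against 8.09 CPM in young sham). The 4 Il1rap ratios in oligodendrocytes ran from 0.889 to 0.967. Il1rap and Il33 shared a cell type. After thinning, Il1rap was detected in 14.3% of Il33-positive and 15.4% of Il33-negative cells of old sham, in 15.1 and 12.8% of young sham, and in 13.3 and 9.85% of old tumour.

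A separate source in young tumour was the Hmga2-positive gate, with 431 cells there, 1 in old sham and 0 in the other libraries. These cells were deep, with a median of 25743 UMIs, so CPM and not detection is compared. They held 1007 Casp1 UMIs, 44.2% of the library's, at 78.6 CPM against 54.5 in microglia-gated cells of the same library. Their Pycard was 5.23 CPM and their Nlrp3 0.312 CPM, so the protease was present with little of the sensor or adaptor RNA. Il33 was 53.5 CPM from 685 UMIs, 9.33% of the library's, and its receptor Il1rl1 was 36.3 CPM from 465 UMIs. Il1r1 was 14.2 CPM, 32.1% of that library's Il1r1 UMIs, and Il1rap 16.9 CPM. Il1a was 0.312 CPM and Il1b 3.90 CPM.

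Genes around the members gave a mixed picture in microglia-gated cells. Of 15 NF-kB target genes that IL-1 can induce, 8 were measured, and 6 were higher and 0 lower in old than in young sham, with a median log2 ratio of 1.79, beside 4.42% higher and 4.80% lower of all genes. They included Nfkbia, an inhibitor of NF-kB, with 654, 347, 2763 and 656 CPM, and Nfkbiz with 133, 57.9, 654 and 136 CPM. With a tumour 5 of 8 were higher with age, beside 2.0% of all genes. In young tumour against young sham 5 were lower and 2 higher, the higher ones being the chemokine Ccl2 (35.1 to 81.8 CPM) and Vcam1 (7.15 to 15), beside 1.51% lower and 2.68% higher of all genes. In old mice 6 were lower with a tumour, beside 3.04%. The dissociation-responsive genes described above differed in the same cells, and their part in these counts was not tested. Of the adaptors and kinases of the receptor, 8 were measured and 0 passed 1.5-fold in any comparison. Beside them 1.51 to 4.80% of all genes passed in a given direction, so 0 of 8 says little. Myd88 was 35.1, 29.9, 41.8 and 29.8 CPM. Among 12 measured other inflammasome genes 1 was higher in old than in young sham (4.42% of all genes), Casp4, the caspase that senses bacterial lipopolysaccharide, at 27.5, 20.3, 80.1 and 25.9 CPM. Of 5 other IL-1 family ligands 0 reached 10 CPM in microglia-gated cells. In neutrophil-gated cells Il1f9, the gene of a ligand of the IL-36 group, had 108 CPM in young sham, 39.7 in young tumour and 228 in old tumour, from 53, 4 and 40 UMIs.

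Endothelial cells, which held 30.5 to 42.6% of a library's Il1r1 UMIs, had 8 of the 15 NF-kB targets measured. Of these, 6 were higher in old than in young sham beside 5.33% of all genes. In old tumour 5 were lower than in old sham beside 2.49% of all genes. The summed level of all 15 differed less, at 1144, 1303, 1458 and 964 CPM, with young tumour above young sham. Lcn2, a secreted iron-binding protein, was 76.5, 64.2, 148 and 17.5 CPM and Ptgs2, an enzyme of prostaglandin synthesis, 10.4, 5, 26.3 and 18.1 CPM. The dissociation-responsive genes summed to 5597, 5500, 15008 and 6500 CPM in the same cells, with 17 of 20 higher in old than in young sham. Their part in the target genes' difference was not tested.

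Genes with levels most like 3 members were sought over 66 sums of a gated type in a library (20 types, at least 30 cells), by Pearson correlation of log2(CPM + 10) among 11107 genes, as a description only since sums of 1 library share their cells' source. Il1b was closest to the cytokine Osm, Ccl6, Csf2rb and Alox5ap (each 0.94). Il33 was closest to Aspa (0.91), an enzyme of oligodendrocytes, and Nkx6-2 (0.88). Il1r1 was closest to Bcam and Igfbp7 (both 0.92), genes of vessels.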

How the data were processed

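Single-cell RNA of 4 libraries (10x 3′ v3) was deposited as raw UMI counts for each gene in each barcode, not normalized, per the file headers; the deposited features and barcodes have no unit. The submitters' processing notes name mm10, Cell Ranger 3.0.2 and Seurat 2.3.4, while version 6.1.0 of Cell Ranger stands in the matrix headers, and which made the counts was not settled. Positions are from GENCODE mouse release 21. Cells were kept with at least 500 UMIs, 200 genes and at most 20% mitochondrial UMIs, and the highest Scrublet scores (scanpy 1.11.5) were removed at 0.8% per 1000 barcodes, 4113 cells. Because no cell annotation was used, types were rebuilt from markers and can differ from the study's own.

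UMIs were summed per gate and library. Ratio intervals are exact conditional Poisson and shares exact Clopper-Pearson intervals at 95%, and those of a ratio between ratios come from the Poisson variance on the log scale; all cover counting error only. Genes with at least 10 CPM in 1 or both libraries counted as measured and were called at 1.5-fold; a count of 0 was replaced by 3 counts as a bound. The ratio script was tested on simulated data. Members and lists were chosen with earlier results of these data known. All 10 members are named, and of each list at most 4 genes with the largest log2 ratio in the type described, besides genes named for their role after their values were seen. Alternatives covered doublets, cell filters, gates, scaling, depth, top cells and dissociation-responsive cells; those on Tnf, on other myeloid markers and in types other than microglia were added after seeing the data. The strain field differed between samples in its last digit and was not used.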

Additional observations from a re-analysis of the deposited data

Results flagged for a closer look

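Members with at least 10 CPM in each comparison, in types with at least 30 gated cells in every library, were searched for ratios past 1.5-fold in opposite directions. 2 were found, both on 18 UMIs or fewer per library, and the difference itself was not tested for either. Il18 in B cell-gated cells had an old over young ratio of 3.56 in sham (5 against 3 UMIs) and 0.382 in tumour (1 against 3 UMIs). Pycard in neuroblast-gated cells had a tumour over sham ratio of 0.439 in young mice (16 against 18 UMIs) and 5.85 in old mice (6 against 1 UMI). Ungated cells, a mixture left out of that search, had opposite ratios on more UMIs. Their Il1b had a tumour over sham ratio of 2.80 in young mice (2295 against 635 UMIs) and 0.530 in old mice (692 against 932). Nlrp3 had 2.12 and 0.207 there (at least 20 UMIs per library), and Il1rn 11.7 and 0.130 (at least 2).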

How the results depend on the processing

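No paired analysis was possible because each group is 1 library, and no library could be left out for the same reason. In cells below the median of the dissociation list, Nlrp3 in microglia-gated cells had an old over young sham ratio of 0.789 and an old tumour over sham ratio of 1.02, and Il1b an old over young tumour ratio of 0.442, each on the other side of 1 than over all cells. There 1 member was higher and 1 lower for age in tumour, 1 higher and 0 lower for tumour in young, and 1 lower for tumour in old mice. Il1a had tumour over sham ratios of 0.937 in young and 0.670 in old mice there, both within 1.5-fold, unlike over all cells. In the same cells Il1b of border macrophages had age ratios of 0.834 in sham and 0.420 in tumour. Without the 5 cells with most UMIs, Il1b of neutrophil-gated cells had an old over young sham ratio of 0.380, on few cells. A stricter gate, the mean of cell CPM, thinning and leaving out cells with other myeloid markers each gave 2 members lower in young tumour, with Il1b at 0.570, 0.589, 0.565 and 0.518. A looser gate and leaving out Tnf-positive cells each gave 1 member higher for age in tumour. Il1b was just under the bound in the looser gate (1.5 after rounding) and 1.17 without Tnf-positive cells. Counting all 10 members with at least 1 UMI in each library gave 6 higher for age in sham and 1 lower for age in tumour. It also gave 1 higher for tumour in young and in old mice. For tumour in old mice Il33 joined the lower members, at a ratio of 0.313. The count of all 10 takes in Il1rn, Il1r1 and Il33, with as few as 1, 11 and 25 UMIs in microglia-gated cells of a library. The share of all genes under these changed settings is not given here, so the re-counts are not read as a result about the members. Cell numbers limit neutrophils, monocytes and border macrophages, and Il1rn and Il1r1 rest on few UMIs per gate. The causes were not tested.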
